A study of Macaca fascicularis with 6 samples.

Results

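The cytosolic ribosomal protein genes are the subject here, followed in 5 conditions of cynomolgus monkey cells that span pluripotent cells, cartilage grown from them, the same cartilage after months in a knee joint, native cartilage and scar-like tissue. Members were chosen by symbol, as genes named RPL or RPS with a number and an optional letter suffix, plus the stalk genes RPLP0, RPLP1 and RPLP2. Kinases of the RPS6K family, mitochondrial ribosomal protein genes (MRPL, MRPS) and Y-linked members were left out. The rule found 51 genes, 32 of the large and 19 of the small subunit, among 13950 genes in the matrix with cyiPSC and 14020 genes in the matrix with the tissue samples. Of the 76 symbols of the canonical lists, 46 were listed, and the 30 not listed in the matrices, such as RPL3, RPL10, RPL11, RPS19 and RPS27A, were not analysed here. The other 5 members are paralogs, RPL3L, RPL7L1, RPL10L, RPL22L1 and RPS27L.

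The conditions were cyiPSC, an induced pluripotent stem cell line of the cynomolgus monkey that carries an EGFP reporter gene and is kept on mouse feeder cells; pre-transplant cyiPS-Cart, cartilage organoids differentiated from that line; post-transplant cyiPS-Cart, the organoids recovered 4 months after allogeneic transplantation into chondral defects of the knee; cyAC, intact articular cartilage; and cyFT, the fibrous tissue that filled defects left empty. Animals were 3 to 4 years old, and the genotype of the joint samples is labelled wild type, that of the recipients, although the cells of the graft come from the EGFP line, which is a single line. Transplanted sites of a monkey were combined, and how many animals each library pools is not named. Each condition was taken as 1 sample, so no spread between samples can be had and no test was run; intervals are 95% and cover counting error only, which at these depths is much smaller than the spread between cells.

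Ribosomal proteins are the protein part of the ribosome. They are made in near-equal numbers, imported into the nucleolus and built onto ribosomal RNA, and a subunit stalls in assembly when a member is short. Their mRNAs start with a terminal oligopyrimidine (TOP) tract, through which the mTOR pathway sets their translation, and the amount of mRNA is high in most cells. A few members have a second gene copy with tissue-bound use, such as RPL3L in muscle and RPL10L in the testis, and some act outside the ribosome, as RPL5 does in the p53 response.

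TAS-Seq, a single-cell method with beads that capture polyadenylated RNA, gave read counts rather than molecule counts. The cells numbered 2500 of cyiPSC and 3527 of pre-transplant cyiPS-Cart in the first matrix and 320 of each tissue condition in the second. Median reads per cell were lowest in cyFT (27499.5) and cyAC (29699) and highest in cyiPSC (143075). No cell name was shared between conditions, and 300 of the 320 pre-transplant cells of the second matrix also stand in the first, with no count that differs. Labels were compared with fixed markers. The 8 pluripotency markers summed to 816.5 counts per 1000000 reads (CPM) in cyiPSC and to at most 17.4 CPM elsewhere. The 9 listed chondrocyte markers summed to 129.8 CPM in cyiPSC and to 38271 CPM or more in the other conditions. The 9 fibroblast markers summed to 424 CPM in cyiPSC, 27658 CPM in pre-transplant, 74060 CPM in post-transplant, 9555 CPM in cyAC and 50246 CPM in cyFT cells. The fibroblast sum was thus highest in the graft and not in the fibrous tissue. The graft's sum rested on COL3A1 (34538.5 CPM, against 10222 CPM in cyFT) and COL1A2 (25851.5 CPM, against 18279 CPM). TNC and POSTN were also higher in the graft. COL1A1 was higher in cyFT, at 18192 CPM against 10168 CPM, as were COL6A3, THY1, PDGFRB and PDGFRA. Cells with COL1A1 and no COL2A1 reads made up 53.1% of cyFT and 2.19% of post-transplant cells, and those with both 10.3 and 14.7%. The 6 immune markers summed to 439 CPM in cyFT and 33.2 CPM in cyAC.

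Post-transplant cyiPS-Cart held the highest share of reads on the 51 genes and cyFT the lowest. Summed over cells, the share was 7.12% in cyiPSC, 7.93% in pre-transplant cyiPS-Cart (7.92% in the 320 cells of the second matrix), 9.16% in post-transplant cyiPS-Cart, 6.25% in cyAC and 4.93% in cyFT. Counting error was small throughout, with an interval of 4.92 to 4.95% at the least read condition, cyFT. Per cell, the median was 7.07% (quartiles 6.56 and 7.63%) in cyiPSC and 7.99% (6.81 and 9.11%) in pre-transplant cells. It was 9.33% (7.78 and 10.8%) in post-transplant cells, 6.38% (4.99 and 7.78%) in cyAC and 4.92% (4.06 and 5.87%) in cyFT. The ranges of single cells overlapped between all conditions, and the cells of cyiPSC were the most alike, with an interquartile range of 1.07 percentage points against 3.06 in post-transplant cells. A single cyiPSC cell reached 29.6%, with 26548 reads, and the next highest 21.7%, whereas 90% of cyiPSC cells lay between 5.86 and 8.51%.

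**Figure D1:**
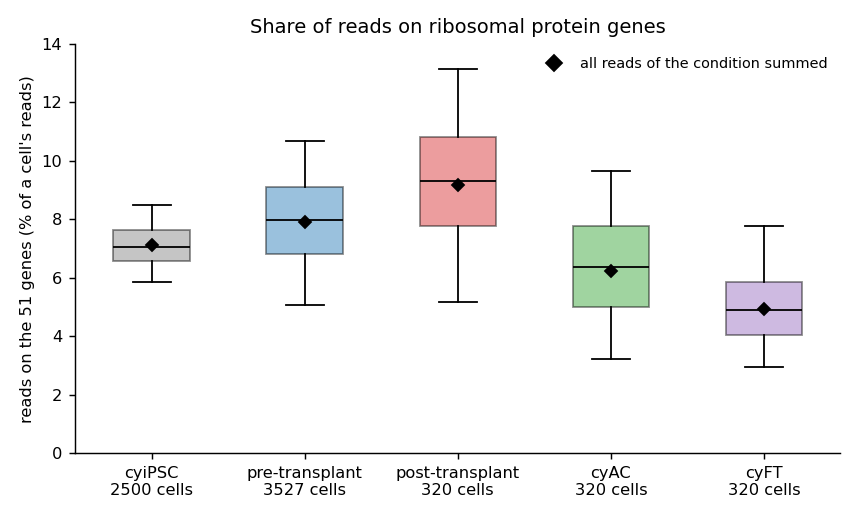
Share of reads on the 51 ribosomal protein genes by condition. The vertical axis is percent of a cell's reads; boxes give the quartiles and median over cells, whiskers the 5th and 95th percentiles, and diamonds the share of all reads summed. The median is highest in post-transplant cells (9.33%) and lowest in cyFT (4.92%), and the whiskers of all conditions overlap.

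Since the share is relative, the reads of other abundant genes bear on it. Matrix genes, a fixed list of collagens and other secreted cartilage proteins, took 0.272% of reads in cyiPSC, 15.0% in pre-transplant, 29.7% in post-transplant, 21.7% in cyAC and 20.1% in cyFT cells. Mitochondrially encoded genes took 7.72, 5.63, 1.97, 3.60 and 3.95% in the same order. With both groups removed from the total, the ribosomal protein share was 7.73% in cyiPSC, 10.0% in pre-transplant, 13.4% in post-transplant, 8.36% in cyAC and 6.49% in cyFT cells. Post-transplant cells thus stayed the highest and cyFT the lowest, while cyiPSC moved below cyAC. Sequencing depth within a condition moved little with the share: Spearman's rho with reads per cell ran from -0.16 in cyFT to -0.01 in the 320 pre-transplant cells, as a description over cells of 1 library each. Between the shallowest and the deepest cells, taken as the outer parts of a split into equal groups by reads, the median went from 5.22 to 4.63% in cyFT and from 6.75 to 6.20% in cyAC, and from 7.09 to 7.04% in cyiPSC.

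Both subunits moved together. Large subunit genes took 1.52 times the reads of small subunit genes in cyiPSC and 1.57 to 1.68 times in the other conditions. Across cells, the share of the small subunit ranked with that of the large subunit (rho 0.84 in cyFT to 0.92 in the pre-transplant cells of the first matrix), where both shares have a cell's total in common. Single members ranked with the sum of the others to unlike degrees, with a median rho over members of 0.41 in cyFT to 0.59 in the pre-transplant cells of the first matrix, a highest rho of 0.63 to 0.74 and a lowest of -0.10 to 0.15 by condition, again as a description. Nearly every member was read in nearly every cell: the median cell had reads of all 51 genes in cyiPSC and pre-transplant cyiPS-Cart, of 50 in post-transplant cyiPS-Cart and of 49 in cyAC and cyFT. All 51 genes passed the filter on low values in each of the 4 comparisons, which asked for 50 CPM and reads in 25% of cells in either condition.

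Over the 5 conditions, a member's highest CPM was a median of 1.99 times its lowest (quartiles 1.70 and 2.54), against 3.92 times over the 5188 genes that passed the same filter in any condition. A gene could pass through its highest condition alone, and lowest levels under 1 CPM were taken as 1 CPM. No set of genes of like level was compared, so level and filter bear on this contrast. The narrowest range was that of RPL22 (391 to 545 CPM, 1.40 times), an RNA-binding protein of the large subunit. RPS3A and RPS6, the latter the target of the S6 kinases, also had narrow ranges of 1.43 and 1.44 times. The widest were those of RPL7L1 (4.36 times), RPS29 (3.77 times), RPS13 (3.63 times), RPL38 (3.56 times), RPS20 (3.26 times) and RPL27A (3.03 times). Of the 51 members, 30 had their highest level in post-transplant cells and 39 their lowest in cyFT. Of all genes tested, 8.73% were highest in post-transplant cells and 11.2% lowest in cyFT. No member was highest in cyFT, against 13.1% of genes. The 6 members highest in cyAC, RPL22, RPL32, RPL37A, RPL38, RPS21 and RPS29, were a share near the background of 9.91%.

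**Figure D2:**
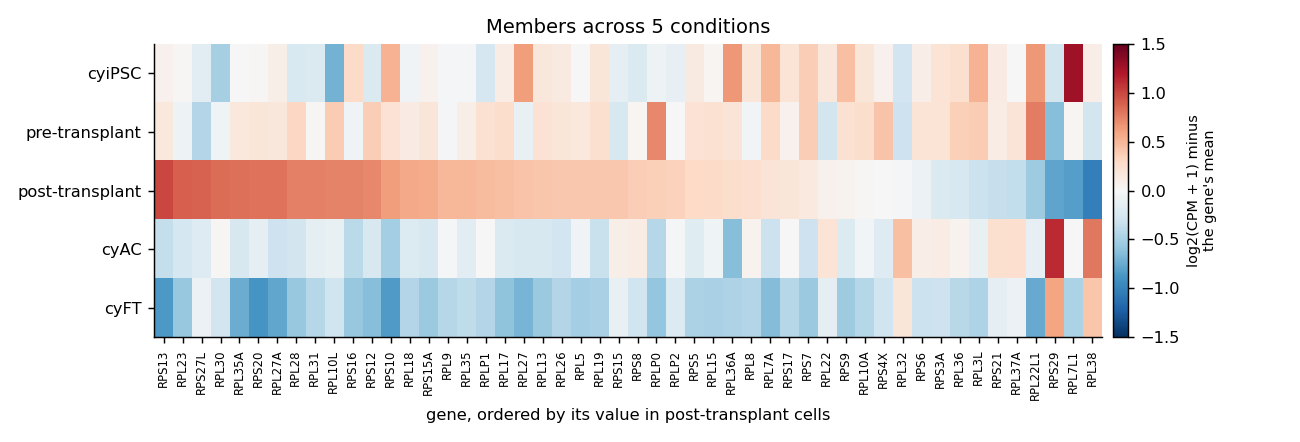
Levels of 50 of the 51 members in 5 conditions, coloured by log2(CPM + 1) minus the gene's own mean over the conditions; genes are ordered from left to right by the value in post-transplant cells. Most genes are red in the post-transplant row and blue in the cyFT row, and RPL38, RPL7L1 and RPS29 at the right end run the other way in the post-transplant row.

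The comparison of pre-transplant cyiPS-Cart with cyiPSC shows what changed as pluripotent cells became cartilage organoids. The ribosomal protein share was 1.11 times that of cyiPSC, a log2 ratio of 0.16. Members stayed close to each other, with a median log2 ratio of CPM + 1 of 0.08 and 47 of 51 within 1.5 times of that median, while the 4684 genes tested had a median of -0.63 and an interquartile range of 1.87 against 0.31 for the members. Only 1 member was at least 2-fold higher and 1 at least 2-fold lower, against 18.4% and 38.5% of all genes tested. With TMM factors, from the trimmed mean of M values, or median-of-ratios factors these counts were 7 and 0, against 26.6% and 19.4% of all genes with TMM and 27.4% and 18.5% with median-of-ratios factors. Above 0 stood 32 members and below it 19, where the background was 33.1% above and 66.9% below. The split depends on scaling too: TMM factors moved all log2 ratios by 0.67 and left 49 members above 0 and 2 below, RPL7L1 and RPL27, against 51% and 49% of all genes. The 2 conditions were sequenced in the same library.

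RPL10L and RPL7L1 stood apart from the other members in this comparison, by more than 1 from the member median on the log2 scale. RPL10L was read at 1641 CPM in cyiPSC, 3477 CPM in pre-transplant, 4482 CPM in post-transplant, 2489 CPM in cyAC and 2170 CPM in cyFT cells. Its log2 ratio was 1.08 (interval of the read ratio 1.08 to 1.09), which lay 1.00 above the member median and so barely past the limit, and with a pseudocount of 10 CPM it no longer stood apart. RPL7L1 no longer did so with means over the cells that had reads of the gene. RPL10L is an autosomal, intronless copy of the X-linked gene RPL10 and is known for its part in the testis; as RPL10 is not listed here and the 2 sequences are alike, reads of RPL10 may be counted under this symbol, and the gene of origin is uncertain. The same holds for RPL3L, the muscle paralog of RPL3, which was read at 195.5 CPM in cyiPSC and 177 CPM in pre-transplant cells. RPL7 and RPS27, of which RPL7L1 and RPS27L are paralogs, are not listed either, nor is RPL36AL, a paralog of RPL36A. Whether reads of these unlisted genes are counted under RPL7L1, RPS27L and RPL36A was not tested.

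RPL7L1, a paralog of RPL7 associated with precursors of the large subunit, was read at 215 CPM in cyiPSC, 90.6 CPM in pre-transplant, 49.3 CPM in post-transplant, 87.7 CPM in cyAC and 63.5 CPM in cyFT cells. The pluripotent cells were the highest, and the log2 ratio of pre-transplant over cyiPSC was -1.24 (interval of the read ratio -1.27 to -1.23). Reads of RPL7L1 were found in 97.9% of cyiPSC cells and 73.1% of pre-transplant cells. With each cell thinned to 30967 reads, which left out 60 and 353 cells, the shares were 97.1% (interval 96.4 to 97.8%) and 66.7% (65.0 to 68.3%). RPL7L1 barely ranked with the rest of the ribosomal protein reads from cell to cell, with rho of -0.02 in cyiPSC and -0.01 in pre-transplant cells, where the median member had 0.45 and 0.59. RPS27L was also low in this measure, with 0.15 and 0.08, and RPL22L1 had 0.17 in cyiPSC.

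The stalk of the large subunit, which draws in the elongation factors, was not even. RPLP0, the stalk base, was read at 4071 CPM in cyiPSC and 7062 CPM in pre-transplant cells, a log2 ratio of 0.79, and went from 5.72 to 8.91% of all member reads. RPLP1 was read at 1791 and 2506 CPM (0.48) and RPLP2 at 581 and 632.5 CPM (0.12). Without RPLP0, the log2 ratio of the share between the 2 conditions was 0.11 in place of 0.16. Of the other fixed members, RPL5, which binds 5S RNA and MDM2, was read at 1966 and 2184 CPM (log2 ratio 0.15), RPS6 at 2104 and 2264 CPM (0.11) and the X-linked RPS4X at 2001 and 2566 CPM (0.36). RPL22 stood at 533 and 391 CPM (-0.45), RPL36A at 650 and 472 CPM (-0.46) and RPL38 at 194 and 150 CPM (-0.37), and these 3 values turned positive with TMM factors.

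The lists of mitochondrial ribosomal proteins and of ribosome biogenesis factors lay below the all-gene median of -0.63 in this comparison, and those of initiation factors and of elongation and TOP genes lay near it. Of 58 mitochondrial ribosomal protein genes tested, 43 were at least 2-fold lower in pre-transplant cells and none was 2-fold higher, with a median log2 ratio of -1.24. Of all genes tested, 38.5% were at least 2-fold lower and 18.4% higher. MRPL35 was read at 134 CPM in cyiPSC and 22.1 CPM in pre-transplant cells and MRPS27 at 103 and 18.6 CPM, while MRPL53 was read at 57.0 and 72.5 CPM. Ribosome biogenesis factors had a median of -0.99, with 19 of 38 at least 2-fold lower and 2 higher. Among them XPO1, the export receptor of both subunits, went from 421 to 64.8 CPM, and SBDS, which acts in the last maturation step of the large subunit, from 76.1 to 162 CPM. The initiation factors had a median of -0.58, with 4 of 24 at least 2-fold lower, where the background was 38.5%, and 1, EIF1, higher (397 and 897 CPM). The translation elongation factors and other TOP mRNAs had 6 of 13 genes listed and a median of -0.64. Of the 6, 1 was at least 2-fold lower and 2 higher, VIM (219 and 3833 CPM) and TPT1 (1457 and 3483 CPM). With TMM factors these medians were -0.57 for mitochondrial ribosomal proteins, -0.32 for biogenesis factors, 0.09 for initiation factors and 0.03 for elongation and TOP genes, so the last 2 changed sign, against 0.75 for the members. The mTOR and TOP regulators had a median of -0.58 (0.09 with TMM factors), with 3 of 11 at least 2-fold lower and 2 higher. Of these, MYCN was read at 174 CPM in cyiPSC and 4.31 CPM in pre-transplant cells, and EIF4EBP1, the mTOR-controlled inhibitor of cap binding, at 58.5 and 187 CPM. Ribosomal proteins outside the rule resembled the members, with RPSA at 3847 and 3641 CPM and RACK1 at 2282 and 2806 CPM.

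**Figure D3:**
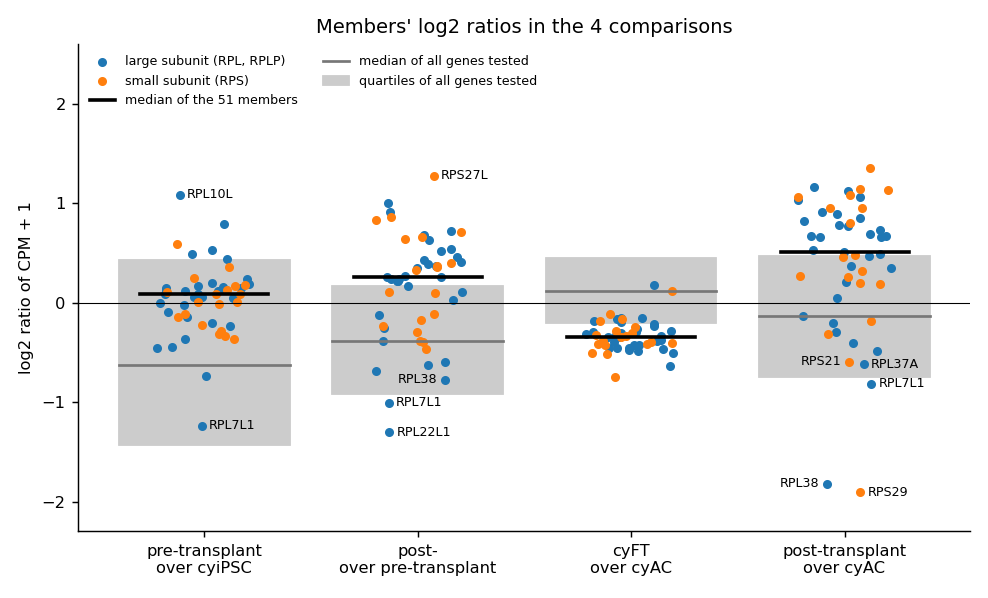
Log2 ratios of CPM + 1 of the 51 members in the 4 comparisons, blue for the large and orange for the small subunit. Black bars are member medians (0.08, 0.26, -0.34 and 0.51 from left to right), grey bars and boxes the median and quartiles of all genes tested, and named genes lie more than 1 from the member median.

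Post- against pre-transplant cyiPS-Cart asks how the organoids changed during 4 months in the joint. Here the share was 1.16 times higher after transplantation, a log2 ratio of 0.21, and the median of the members was 0.26 against -0.39 over 3421 genes tested. The 2 conditions come from different libraries, so library and condition cannot be told apart. Of the members, 1 was at least 2-fold higher and 2 at least 2-fold lower, where the background was 8.16% and 22.1%; with either set of factors it was 5 and 1, against 11% and 14.8% with TMM and 10.7% and 15.3% with median-of-ratios factors. Above 0 stood 35 members and below it 16, against a background of 31.2% above and 68.8% below; with TMM factors, which added 0.22, it was 38 and 13, against 41.6% and 58.4%. The members spread more widely than between cyiPSC and organoids, with an interquartile range of 0.69. In cells with COL2A1 and no COL1A1 reads alone, 265 post- and 242 pre-transplant cells, the shares were 9.21% and 8.09%, and again 35 members were above 0 and 16 below, against 32.8% and 67.2% of the 3378 genes tested.

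RPS27L stood apart above the others and RPL22L1, RPL7L1 and RPL38 below. With a pseudocount of 10 CPM only RPL22L1 and RPL7L1 stood apart, and with means over the cells that had reads of a gene none did. In cells with COL2A1 and no COL1A1 reads, RPL38 no longer stood apart. RPS27L, a paralog of RPS27 that p53 induces, was read at 76.9 CPM in cyiPSC, 63.1 CPM in pre-transplant cells, 160 CPM in post-transplant cells, 75.1 CPM in cyAC and 81.3 CPM in cyFT. In these levels the post-transplant cells alone were high, and they are the only cells of their library. The log2 ratio over pre-transplant cells was 1.28 (interval of the read ratio 1.20 to 1.38). Among cells with reads of RPS27L, the mean was high in all joint conditions. It was 191 CPM in post-transplant cells, 152 CPM in cyAC and 178.5 CPM in cyFT. Means were 83.9 CPM in cyiPSC and 84.0 CPM in pre-transplant cells of the first matrix. Thinned to 12191 reads a cell, 55.3% of post-transplant cells (interval 49.7 to 60.8%) had reads of RPS27L, against 43.9% of pre-transplant cells (38.4 to 49.5%), 36.4% in cyAC and 36.5% in cyFT. From cell to cell, its rho with the rest of the ribosomal protein reads was -0.10 in post-transplant cells, the lowest of any member in any condition, where the median member had 0.51.

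RPL22L1, a paralog whose expression is held down by RPL22, was read at 260 CPM in cyiPSC, 284 CPM in pre-transplant, 114 CPM in post-transplant, 152 CPM in cyAC and 97.3 CPM in cyFT cells. The cultured conditions, which share 1 library, were high, and all 3 joint conditions, which come from other libraries, were low. Library and condition cannot be told apart in this pattern. For RPL22L1 the log2 ratio of post- over pre-transplant cells in the second matrix was -1.30 (interval of the read ratio -1.37 to -1.25). Its partner RPL22 was read at 379 CPM in the 320 pre-transplant cells and 496 CPM after transplantation, a log2 ratio of 0.39. Thinned to equal reads, RPL22L1 was found in 86.5% of pre-transplant cells (interval 82.3 to 90.1%), 44.1% of post-transplant cells (38.5 to 49.7%), 62.7% of cyAC cells (57.0 to 68.1%) and 44.4% of cyFT cells (38.6 to 50.4%). Without thinning the post-transplant share was 58.1%.

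RPL7L1 was lower again, at 100 CPM in the 320 pre-transplant cells and 49.3 CPM after transplantation, with reads in 75.0 and 35.9% of cells (47.6 and 21.2% after thinning). Among cells with reads the mean was 132 CPM before and 149 CPM after transplantation, and in that measure, which leaves out cells without reads, the log2 ratio turned from -1.01 to 0.18. RPL38, whose loss in mice changes the translation of Hox mRNAs, was read at 152 CPM before and 88.5 CPM after, a log2 ratio of -0.77, and 79.0 and 56.6% of thinned cells had reads of it. Just inside the limit, RPL3L (-0.69) lay 0.95 below the member median.

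The remaining members lay between these. The stalk genes parted again, with RPLP0 at 7146 CPM before and 5479 CPM after transplantation (log2 ratio -0.38), RPLP1 at 2527 and 2975 CPM (0.24) and RPLP2 at 628.5 and 802 CPM (0.35). RPL23 went from 692.5 to 1383 CPM, just short of 2-fold, RPL30 went from 1220 to 2295 CPM, and RPS13 and RPS16 had log2 ratios of 0.86 and 0.83. On the other side of 0, RPL36 (567 and 366 CPM), RPL37A (543 and 358 CPM), RPS21 (270 and 195 CPM) and RPS3A (3652 and 2798 CPM) had log2 ratios of -0.63, -0.60, -0.47 and -0.38. These 8 genes were chosen after their values were seen. RPL5 was read at 2148 and 2593 CPM (0.27), RPL36A at 461 and 497 CPM (0.11), RPS6 at 2269 and 1854 CPM (-0.29) and RPS4X at 2538 and 1923 CPM (-0.40). Outside the rule, RPSA was read at 3636 and 2133 CPM (-0.77) and RACK1 at 2742 and 2088 CPM (-0.39).

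The ribosome biogenesis list had a median of -1.05 in this comparison, with 16 of 28 genes at least 2-fold lower and 1 higher, against 22.1% and 8.16% of all genes. RRP12 went from 91.7 to 17.3 CPM and DDX21, a helicase of ribosomal RNA synthesis, from 344 to 67.9 CPM, while XPO1 went from 52.9 to 111 CPM. Initiation factors had a median of -0.71, with 8 of 24 at least 2-fold lower and none higher, led by EIF4A1 (827 and 198 CPM) and EIF3B (136 and 40.5 CPM). Mitochondrial ribosomal protein genes had a median of -0.26, with 3 of 27 at least 2-fold lower, where the background was 22.1%, and a median of -0.03 with TMM factors, so they did not lie below the all-gene median of -0.39. The mTOR and TOP regulators had a median of -0.99. Of 8 genes, 7 were below 0, where the background was 68.8%, and 4 at least 2-fold lower, where it was 22.1%. DDIT4, a stress-induced inhibitor of mTOR complex 1, was the exception and went from 16.9 to 229 CPM, and EIF4EBP1 from 193 to 69.3 CPM. The 6 elongation and TOP genes tested had a median of -0.32, near that of all genes, and of -0.09 with TMM factors, with TPT1 at 3485 and 3059 CPM and PABPC4 at 238 and 106 CPM.

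**Figure D4:**
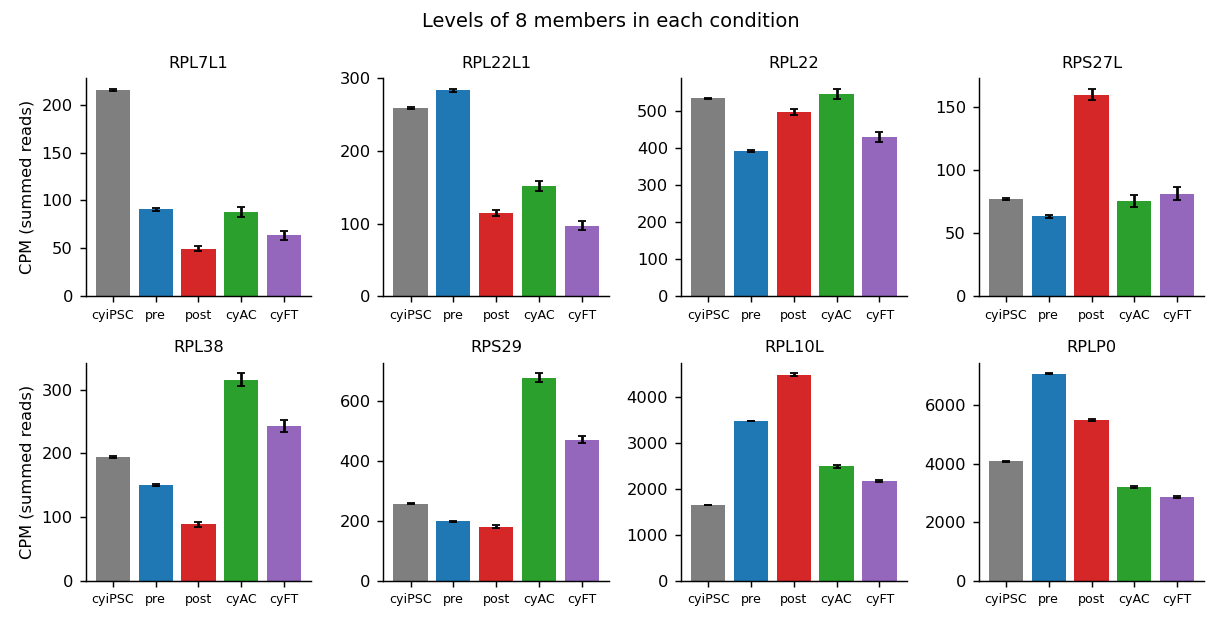
CPM of 8 members in cyiPSC, pre-transplant (first matrix), post-transplant, cyAC and cyFT cells, from reads summed over the cells of a condition, with exact Poisson 95% intervals for counting error. RPL22L1 is low in the 3 joint conditions where RPL22 is not, RPS27L is high in post-transplant cells (160 CPM), and RPL38 and RPS29 are lowest in post-transplant and highest in cyAC cells. Scales differ between panels.

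Fibrous tissue was set against intact cartilage to see how scar in an untreated defect differs, within 1 library. The share of cyFT was 0.790 times that of cyAC, a log2 ratio of -0.34 (interval -0.35 to -0.34). Members were offset together: 49 of 51 were below 0 and 2 above, against 40.8% and 59.2% of the 3270 genes tested, with a median of -0.34 where all genes had 0.11. The interquartile range was 0.17 against 0.65 over all genes, none was 2-fold higher or lower (background 7.06% and 3.73%), and all 51 lay within 1.5 times of the member median. The largest differences were RPS20, at 1970 CPM in cyAC and 1170 CPM in cyFT (log2 ratio -0.75), RPL22L1, at 152 and 97.3 CPM (-0.64), and RPS29, at 676 and 470 CPM (-0.52). RPS20 and RPS29 are small subunit proteins. RPL36A, at 264 and 298 CPM (0.18), and RPS27L, at 75.1 and 81.3 CPM (0.11, interval of the read ratio -0.02 to 0.25), were the members above 0, and both were below it with TMM factors, which subtracted 0.18. RPS4X followed them in order, at 1674 and 1551 CPM (-0.11). RPLP0 was read at 3194 and 2870 CPM (-0.15), RPLP1 at 2124 and 1575 CPM (-0.43), RPLP2 at 622 and 547 CPM (-0.19), RPL5 at 1879 and 1369 CPM (-0.46) and RPS6 at 2112 and 1572 CPM (-0.43).

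Shares were also taken in parts of the cells, since cyFT holds more fibroblast and immune marker reads than cyAC. Whether the mix of cells bears on the offset was not tested. Without the cells that had reads of any immune marker the log2 ratio of the share was -0.34, as with them. Cells were then sorted by COL2A1 and COL1A1 reads, a split that depends on depth because deeper cells show reads of either gene more easily. Among them, 276 cyAC and 84 cyFT cells had COL2A1 and no COL1A1 reads. In these cells the summed share was 6.63% in cyAC and 4.92% in cyFT, and 50 of 51 members were below 0, against 52.9% of the 3146 genes tested. Among cyFT cells the 170 with COL1A1 and no COL2A1 reads had a median share of 5.07% (quartiles 4.28 and 6.28%), and the 84 with COL2A1 alone 4.75% (4.12 and 5.58%), whereas the 33 with neither had 3.47%. The first and second of these groups had 21830 and 47802.5 median reads per cell, and in cyFT the share was lower in deeper cells. In the order given, the cyFT groups had median mitochondrial shares of 4.23, 2.72 and 6.21%. The part of depth and of the mitochondrial share was not tested. In cyAC the order differed, with 6.56% (5.48 and 7.93%) in the 276 cells with COL2A1 alone and 3.63% (2.91 and 4.24%) in the 16 with COL1A1 alone. These cyAC groups had 30768.5 and 28438.5 median reads per cell and median mitochondrial shares of 3.27 and 4.67%. The part of either was not tested here.

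**Figure D5:**
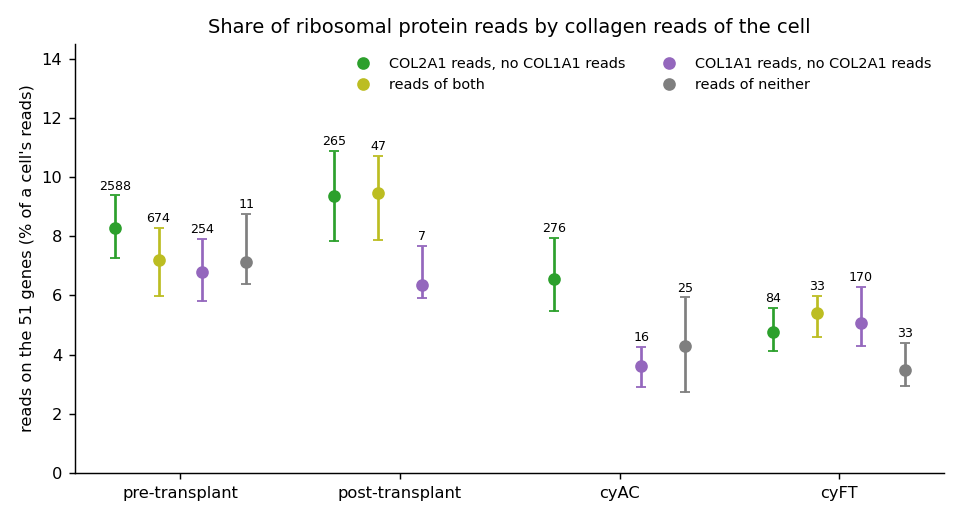
Share of reads on the 51 genes in cells sorted by reads of COL2A1 and COL1A1. Points are medians over cells, bars the quartiles, and numbers over the bars the count of cells; groups under 7 cells are not drawn. Cells with COL2A1 alone have a median of 6.56% in cyAC and 4.75% in cyFT, and 9.35% in post-transplant cyiPS-Cart.

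Between fibrous tissue and cartilage, the lists of other translation genes had medians of -0.05 to 0.29, where all genes had 0.11. Of all genes tested, 59.2% were above 0 and 7.06% at least 2-fold higher, as background for the counts below. The initiation factors had a median of 0.01, with 12 of 24 on each side of 0, and the mitochondrial ribosomal proteins 0.05, with 6 of 11 above. Ribosome biogenesis factors had a median of -0.05, with 10 of 22 above. With TMM factors the first 2 of these medians changed sign, to -0.17 and -0.14, and the third was -0.23, against -0.53 for the members. RRP12 was read at 152 CPM in cyAC and 51.5 CPM in cyFT, and NOP10 at 32.7 and 72.9 CPM. The mTOR and TOP regulators had a median of 0.29 (0.10 with TMM factors), with 6 of 8 above 0 and 1 at least 2-fold higher, and DDIT4 stood at 52.3 and 156 CPM. The elongation and TOP genes had a median of 0.11, with 4 of 6 above, and of -0.07 with TMM factors. TPT1, a TOP mRNA, was read at 1941 and 1411 CPM (-0.46), and VIM, another, at 4458 and 8933 CPM (1.00). RPSA and RACK1 had log2 ratios of -0.11 and -0.09.

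Post-transplant cyiPS-Cart was compared with native cyAC, the tissue it is meant to replace. Its share of ribosomal protein reads was 1.47 times that of cyAC, a log2 ratio of 0.55, and the median of the members was 0.51 against -0.13 over 3235 genes. At least 2-fold higher were 9 members, against 10.8% of all genes, and 2 were at least 2-fold lower, against 17.8%. Above 0 stood 39 and below it 12 members, against a background of 44.5% above and 55.5% below, and the split was the same with TMM factors, where the background was 49% and 51%. In cells with COL2A1 and no COL1A1 reads the shares were 9.21% and 6.63%, and 38 members were above 0 and 13 below, against 44.5% and 55.5% of the 3247 genes tested. These conditions were sequenced in different libraries, and both enter another comparison above, so the values are not independent of those.

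Among the 9 higher members were RPS13, RPL23, RPS16, RPS10, RPL27A, RPL35A and RPL28, named after their values were seen, and the fixed member RPS27L. RPS13 was the farthest, at 1226 CPM in cyAC and 3125 CPM in post-transplant cells, a log2 ratio of 1.35, and was read at 1637, 1742 and 861 CPM in cyiPSC, pre-transplant and cyFT cells. The median of the members lay above the log2 ratios of 76.7% of all genes tested.

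The members standing apart were all low in the graft: RPS29, RPL38, RPL7L1, RPL37A and RPS21. RPS29, a small zinc-binding protein of the small subunit, was read at 257 CPM in cyiPSC, 199 CPM in pre-transplant, 179 CPM in post-transplant, 676 CPM in cyAC and 470 CPM in cyFT cells. The conditions of the cyAC and cyFT library were high and all others low, with a log2 ratio of post-transplant over cyAC of -1.91 (interval of the read ratio -1.96 to -1.86). RPL38 was read at 194, 150, 88.5, 315 and 242 CPM in the same order, again with cyAC and cyFT on top, and its log2 ratio was -1.82 (-1.91 to -1.76). In cells thinned to equal reads, 56.6% of post-transplant cells (interval 50.9 to 62.1%) and 90.6% of cyAC cells (86.8 to 93.6%) had reads of RPL38. Because cyAC and cyFT form 1 library, its effect on these genes and that of the tissue cannot be told apart. RPL37A was read at 550.5 CPM in cyAC and 358 CPM in post-transplant cells (-0.62) and RPS21 at 295 and 195 CPM (-0.59), and RPL7L1 at 87.7 and 49.3 CPM (-0.82). RPL32 lay just inside the limit, at 1050 and 752 CPM (-0.48), 0.99 below the member median. With means over the cells that had reads of a gene, RPL32 stood apart and RPL7L1 did not, and in COL2A1-only cells RPL32 stood apart beside the other 5.

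Among the fixed members, RPLP0 was read at 3194 CPM in cyAC and 5479 CPM in post-transplant cells (log2 ratio 0.78), RPLP1 at 2124 and 2975 CPM (0.49), RPLP2 at 622 and 802 CPM (0.37) and RPL5 at 1879 and 2593 CPM (0.46). RPL36A stood at 264 and 497 CPM (0.91) and RPS27L at 75.1 and 160 CPM (1.08). RPS4X was at 1674 and 1923 CPM (0.20), RPL3L at 125 and 108 CPM (-0.21), RPL22 at 545 and 496 CPM (-0.14), RPL22L1 at 152 and 114 CPM (-0.41) and RPS6 at 2112 and 1854 CPM (-0.19).

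Mitochondrial ribosomal protein genes were on the same side as the members here, with a median of 0.64 and 18 of 21 above 0, against 44.5% of all genes. MRPL34 was read at 21.1 CPM in cyAC and 65.2 CPM in post-transplant cells, and MRPL9 at 151 and 47.9 CPM. In contrast, the ribosome biogenesis list had a median of -0.74, with 6 of 19 at least 2-fold lower and 3 higher, against 17.8% and 10.8% of all genes. RRP12 was read at 152 and 17.3 CPM and NOP10 at 32.7 and 119 CPM. The initiation factors had a median of -0.42, with EIF4G1, the scaffold of the cap-binding complex, at 318 and 114 CPM and 5 of 24 at least 2-fold lower, where the background was 17.8%. The mTOR and TOP regulators had a median of -1.33 over only 5 genes. Of these, 4 were below 0, where the background was 55.5%, and 3 at least 2-fold lower, where it was 17.8%. MYC, an activator of ribosome genes, was read at 410 and 64.8 CPM, and the exception DDIT4 at 52.3 and 229 CPM. The elongation and TOP genes had a median of 0.30, with NAP1L1 at 520 and 1137 CPM.

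Within the organoids, the share also varied with the kind of cell. In the first matrix, the 2588 pre-transplant cells with COL2A1 alone had a median share of 8.28% (quartiles 7.25 and 9.38%), the 674 with both collagens 7.21% (5.97 and 8.28%) and the 254 with COL1A1 alone 6.79% (5.82 and 7.92%). In the same order their median mitochondrial shares were 5.24, 5.96 and 7.24%. The 84 cells with reads of at least 3 cycling markers had 5.74% (4.96 and 6.70%), against 8.02% (6.87 and 9.13%) in the other 3443. In cyiPSC, where 2326 of 2500 cells met that criterion, the medians were 7.07% and 7.21%. After transplantation the 265 cells with COL2A1 alone and the 47 with both had 9.35% and 9.46%, and the 7 cells with COL1A1 alone 6.35%, with a mitochondrial share of 7.74% against 1.62% in those with COL2A1 alone. Cells of a condition share 1 library, so these are descriptions of cells in it and not of the condition.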

How the data were processed

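In the 2 matrices used, the values the authors deposited are counts of reads for each gene in each cell. Reads were assigned with Bowtie2 to Ensembl transcripts of the cynomolgus monkey (the methods name Macaca_fascicularis_6.0; the submitters' processing notes name GRCh38, cutadapt 3.4, Bowtie2 2.4.2 and R 3.6.3). The authors separated pooled samples through their hashtags, zeroed counts judged to be background, filtered on mitochondrial reads and cut the second matrix to 320 cells a condition. How reads that match several copies were placed is not given in the sources used here. The 3 hashtag libraries were not used here. No doublet caller was run, and the 5% of cells with most reads were left out as an alternative.

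Cells were taken to conditions by name prefix. Counts were summed per condition and scaled to CPM with every listed gene in the total; log2 ratios are of CPM + 1, which understates changes of low genes. Genes were tested with at least 50 CPM and reads in at least 25% of cells in either condition; called means 2-fold. Depth was 11087496 to 415457877 reads a condition. Shares have exact Clopper-Pearson, CPM exact Poisson and read ratios exact conditional 95% intervals; reads without molecular identifiers are not independent, so these cover counting error only. An interval beside a log2 ratio is of the read ratio without the added 1. Cells were thinned to the 10th percentile of depth. TMM factors came from edgeR 4.0.16 in R 4.3.3; the rest used Python 3.11.15, NumPy 2.4.6, pandas 2.3.3 and SciPy 1.17.1. Log2 ratios and thinning were tested on simulated data.

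Named were members over 1 (log2) from the member median in a comparison, at most 8, otherwise the 3 farthest on each side; fixed members; and, of the other lists, the 2 genes farthest in each direction, from which the text takes examples. Some items are not reported here. The members and lists were chosen with earlier results of these data known. RefSeq's gene table, of a different assembly, holds all 51 symbols and served for names only, so no coordinates or sequences are given and levels are not compared between genes of unlike length.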

Additional observations from a re-analysis of the deposited data

How the results depend on the processing

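With 1 sample a condition no replicate could be left out, and no paired analysis was possible because the groups compared share fewer than 2 replicate numbers. The log2 ratio of the share kept its direction in all comparisons under all alternatives run (0.11 to 0.87 for pre-transplant over cyiPSC, 0.16 to 0.48 for post- over pre-transplant, -0.55 to -0.33 for cyFT over cyAC, 0.48 to 0.71 for post-transplant over cyAC). In that order of comparisons, it was 0.12, 0.16, -0.34 and 0.53 without mitochondrial genes in the total, 0.39, 0.48, -0.37 and 0.71 without matrix genes, 0.83, 0.43, -0.52 and 0.67 with TMM factors and 0.87, 0.42, -0.55 and 0.64 with median-of-ratios factors. It was 0.13, 0.21, -0.35 and 0.54 without the 5 paralogs, 0.11, 0.26, -0.35 and 0.54 without RPLP0, and 0.18, 0.22, -0.38 and 0.55 from medians over cells. A filter of 500 genes and 3 median absolute deviations of the mitochondrial share gave 0.16, 0.22 and -0.35 in the first 3 comparisons, and leaving out the 5% of cells with most reads gave 0.22, -0.36 and 0.53 in the last 3. Chosen after seeing the data were the settings with RPSA and RACK1 added (0.15, 0.16, -0.33 and 0.54, in place of a longer planned list that is not reported), without mitochondrial and matrix genes (0.37, 0.42, -0.36 and 0.68), without cells with immune marker reads (0.13, 0.21 and 0.55, cyFT over cyAC unchanged within counting error) and with COL2A1-only cells (0.19, -0.43 and 0.48 in the last 3).

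The shares themselves were, as medians over cells, 7.07, 7.99, 7.99, 9.33, 6.38 and 4.92% and, as means over cells, 7.16, 7.96, 7.94, 9.28, 6.44 and 5.07% in cyiPSC, pre-transplant (both matrices), post-transplant, cyAC and cyFT. Members past the fold numbered 2, 3, 0 and 11; they were 7 (7 higher and 0 lower) and 6 (5 and 1) in the first 2 comparisons with either TMM or median-of-ratios factors, and 5, 17, 2 and 29 at a fold of 1.5. At that fold 3, 11, 0 and 24 were higher, against 22.9, 14.3, 17.5 and 20.8% of all genes, and 2, 6, 2 and 5 lower, against 51.3, 40.3, 9.2 and 31.1%. Members standing apart numbered 2, 4, 0 and 5; a pseudocount of 10 CPM gave 1 and 2 in the first 2 comparisons, means over cells with reads gave 1 and 0, and a distance of 1.5 times gave 4, 14 and 17 in the first, second and last. RPL7L1 in post- over pre-transplant cells turned to 0.18 with the mean over cells with reads. Of 216 log2 ratios of named members with means over cells with reads, a pseudocount of 10 CPM or without the 5% of cells with most reads, 214 kept their sign. Rescaling, chosen after seeing the data, kept 124 of 144: with each set of factors 7 of 18 turned in the first comparison, 1 in the second, 2 in the third and none in the last. Causes were not tested.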
